A study of Homo sapiens with 4 samples.

Results

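The 9 genes described here belong to the p53 pathway and were taken by symbol from the deposited expression table, which lists 14431 genes. They are MDM2, MDM4, CDKN1A, GDF15, RRM2B, BBC3, BAX, TP53I3 and SESN1. All 9 were listed, and all 9 were among the 14199 genes tested, which had a mean of at least 1 CPM (read counts scaled to the size of each library) in a group.

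Total RNA of HGC27 cells, an established line from a human gastric cancer, was sequenced in 2 control libraries and in 2 libraries (siAARS1) of cells whose AARS1 was knocked down by a small interfering RNA. AARS1 is the cytosolic alanyl-tRNA synthetase, which the study examined as an enzyme that also attaches lactate to proteins. All 4 libraries came from cells kept in glucose-free medium with 10% serum and 25 mM lactate, so the controls carried the lactate as well. The time under lactate was 24 h per the labels, while the text of the study gives a shorter time, so it is uncertain. Nothing in the labels says that replicates came from separate cultures, and p-values therefore measure only the spread between these libraries. With 1 cell line and no library without lactate, an effect of lactate itself was not measured.

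p53 is a transcription factor that is kept scarce by the ubiquitin ligase MDM2 and by its relative MDM4, and it accumulates after DNA damage, ribosomal stress or loss of these inhibitors. It then binds response elements near its target genes and raises their transcripts, among them that of MDM2, which closes a feedback loop. The targets stop the cell cycle through p21 (the product of CDKN1A), supply nucleotides for repair, or start apoptosis at the mitochondria. Several of them, CDKN1A and GDF15 in particular, also answer to other regulators such as the stress factors ATF4 and CHOP.

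The targeted gene was moderately lower in siAARS1. AARS1 (listed under its former symbol AARS, ENSG00000090861; chromosome 16, 70252295 to 70289543 on GRCh38) had 428 and 417 CPM in the controls and 292 and 298 CPM in siAARS1. The log2 fold change was -0.52 (limma adjusted p = 2.52e-11), and the siAARS1 mean was 69.7% of the control mean. AARS1 stood at percentile 11.9 of all genes tested, of which 38.0% were called lower. Its change was -0.35 and -0.41 under the composition corrections described below. Where these kept the mean level of each library, it was -0.19 and -0.22. Depth ranged from 30653210 to 33522573 reads per library, and 1 read was worth 0.0293 to 0.0324 CPM. Of the 7909 to 8627 lower values tested in each library, 100% were whole numbers of reads within 0.1 read. Marker genes were read for the identity of the cells, and they did not by themselves establish a gastric origin. The mesenchymal genes VIM (4600 to 5131 CPM, log2 fold change -0.13), FN1 (51.7 to 75.4 CPM, -0.47) and ZEB1 (6.16 to 52.3 CPM, 2.80) were listed, and CDH2 was not in the table used here. Of 5 epithelial markers only KRT8 and CDH1 were in the table used here, and of 5 gastric mucosa markers none was. Of 10 markers of other cell types 4 were listed: the stromal genes COL1A1 (1541 to 2399 CPM, log2 fold change -0.57), DCN (239 to 270 CPM, 0.11) and LUM (118 to 225 CPM, 0.84), and the macrophage gene CD68 at 0.486 to 1.10 CPM.

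Promoter stretches of 3 of the genes are shown because CDKN1A and GDF15 fell most among the 9 genes and MDM2 is the target through which p53 limits itself. They come from RefSeq promoters on GRCh38.p14, read on the plus strand, with annotated untranslated exon sequence left out. Capitals mark the motifs named after the sequences, and other matches stay in lower case.
CDKN1A: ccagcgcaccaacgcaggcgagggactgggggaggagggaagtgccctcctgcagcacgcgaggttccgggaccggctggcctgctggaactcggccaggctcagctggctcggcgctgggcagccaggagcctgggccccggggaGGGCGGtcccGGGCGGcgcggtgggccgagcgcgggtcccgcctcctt
MDM2: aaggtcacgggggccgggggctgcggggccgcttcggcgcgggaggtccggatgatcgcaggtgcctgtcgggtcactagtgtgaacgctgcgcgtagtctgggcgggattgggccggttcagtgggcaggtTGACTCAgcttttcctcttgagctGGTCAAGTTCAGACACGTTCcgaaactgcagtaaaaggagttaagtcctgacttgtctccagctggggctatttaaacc
GDF15: aagtccggggacTATAAAggccggtccggc
The CDKN1A stretch (chr6:36678464-36678657) ends 57 bases before the transcript start, with GC boxes (GGGCGG, the letters recognised by Sp1) in capitals. The MDM2 stretch (chr12:68808767-68809001) lies before an internal start, and its capitals mark an AP-1 site (TGANTCA) and a match to the p53 response element. The GDF15 stretch (chr19:18386117-18386146) ends 12 bases before the start and shows its TATA box (TATAAA).

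The motifs were searched on both strands in the 250 bases before each start. The p53 response element, a run of 20 bases made of a pair of 10-base motifs, was matched by name with at most 2 mismatches. Among the 8 genes searched it was found only before the internal starts of MDM2, 94 bases upstream of the start at 68809017, where 0.561% of all 35116 promoter windows hold such a match. The CDKN1A window held 4 GC boxes, of which those 45 and 40 bases before the start overlap. At least 1 GC box is held by 42.6% of all windows, and windows with 4 or more were not counted. The windows of SESN1, which was not called, held 7, 5 and 1. TATAAA was found only in the GDF15 window, 29 bases before its start, against 10.7% of all windows, and TGANTCA only in those of MDM2 and BBC3, against 6.57%. A window without a match lacks only these letters, and elements farther away were not searched.

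**Figure D1:**
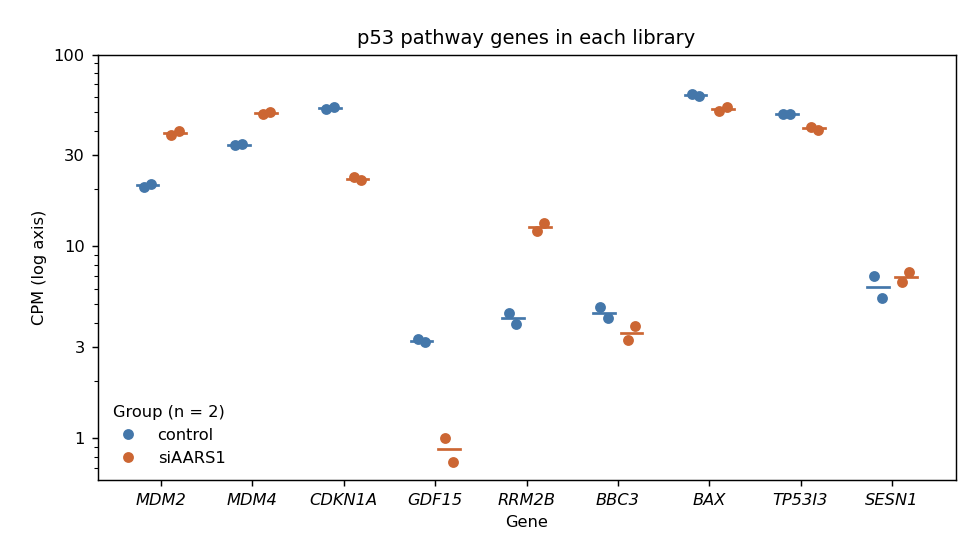
Level of each of the 9 genes in CPM on a log axis, with 1 point per library (2 control, 2 siAARS1) and a line at each group mean. MDM2, MDM4 and RRM2B lie higher in both siAARS1 libraries, CDKN1A and GDF15 lie at less than 50% of the control mean, and only the SESN1 groups overlap.

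Of the 9 genes, 3 were called higher in siAARS1 (MDM2, MDM4, RRM2B), 4 were called lower (CDKN1A, GDF15, BAX, TP53I3) and 2 were not called (BBC3, SESN1), by limma with Benjamini-Hochberg adjustment over all genes tested and a threshold of 0.05. This must be read against a wide background. Of the 14199 genes tested 32.6% were called higher and 38.0% lower, or 70.7% in either direction, so 7 of 9 is near the share of all genes. The groups of libraries did not overlap for 8 of the 9 genes and for 85.1% of all genes. Changes of at least 2-fold were rarer. RRM2B was called at least 2-fold higher, as were 10.6% of all genes, and CDKN1A and GDF15 were called at least 2-fold lower, as were 1.63% of all genes. The 9 genes moved in both directions, and their median log2 fold change of -0.24 lay beside a median of -0.05 for all genes. With bulk RNA, less transcript per cell and fewer cells that make it cannot be told apart.

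The inhibitors of p53 were both higher. MDM2 (ENSG00000135679; chromosome 12, 68808176 to 68850686) had 20.5 and 21.1 CPM in the controls and 38.0 and 40.0 CPM in siAARS1. Both siAARS1 libraries lay far above both controls, and the mean was 1.88-fold higher. Its log2 fold change was 0.88 (standard error 0.0661, n = 2 per group, limma adjusted p = 1.2e-10), at percentile 87.5 of all genes. Its exons share 439 bases on the same strand with a processed pseudogene (AC025423.2, 0.733 to 1.65 CPM), and the counting could have divided reads between them. On the other strand they share 785 bases with the antisense transcript AC025423.4 and 133 bases with a protein-coding gene whose symbol is CPM.

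MDM4 (ENSG00000198625; chromosome 1, 204516379 to 204558120), which binds p53 and dims its transcriptional activity, had 33.8 and 34.2 CPM in the controls. It reached 48.9 and 50.1 CPM in siAARS1, again with no overlap. The mean was 1.46-fold higher, with a log2 fold change of 0.53 (standard error 0.0566, limma adjusted p = 3.56e-08).

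CDKN1A (ENSG00000124762; chromosome 6, 36676460 to 36687339) encodes p21, the inhibitor of cyclin-dependent kinases through which p53 halts the cell cycle. It had 52.1 and 53.2 CPM in the controls against 22.9 and 22.1 CPM in siAARS1. The siAARS1 mean was 42.7% of the control mean, and the replicates of each group differed by little beside that gap. The log2 fold change was -1.19 (standard error 0.0607, 95% interval -1.32 to -1.07, limma adjusted p = 1.34e-13). It stood at percentile 0.803 of all genes tested. The gene shares 146 exon bases with the antisense transcript DINOL, and whether the counting used strand is not given in the sources used here.

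GDF15 (ENSG00000130513; chromosome 19, 18374731 to 18389176), a secreted cytokine of the TGF-beta family that cells release under stress, was the least abundant of the 9 genes in siAARS1. It had 3.29 and 3.18 CPM in the controls, from 112 and 101 reads. In siAARS1 it had 1.00 and 0.752 CPM, from 31 and 25 reads. Both siAARS1 libraries were far below both controls, and their mean was 27.1% of the control mean. The log2 fold change was -1.18 (standard error 0.154, 95% interval -1.50 to -0.86, limma adjusted p = 6.95e-07). Since 1 is added to CPM before the logarithm, this understates the change of so low a gene, and edgeR on the whole reads gave -1.84. Epithelial markers moved in the same direction as CDKN1A and GDF15. KRT8 and CDH1 together summed to 27.3 and 27.0 CPM in the controls and to 7.29 and 6.14 CPM in siAARS1, and EPCAM, KRT18 and KRT19 were not in the table used here. Their part in the falls of CDKN1A and GDF15 was not tested.

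RRM2B (ENSG00000048392; chromosome 8, 102204502 to 102239118) encodes p53R2, a small subunit of ribonucleotide reductase that makes deoxynucleotides outside S phase. It had 4.49 and 3.94 CPM in the controls and 12.01 and 13.3 CPM in siAARS1, a 3-fold higher mean. The log2 fold change of 1.39 (standard error 0.112, limma adjusted p = 3.76e-10) was the largest rise among the 9 genes, at percentile 93.6 of all genes. The other subunits were called higher too. RRM1, the large subunit, had 132 and 138 CPM in the controls and 213 and 215 CPM in siAARS1 (log2 fold change 0.66), and RRM2, the S phase small subunit, rose by 0.30 on the log2 scale. Their directions were not kept under both composition corrections described below: with the first RRM1 was 0.20 and RRM2 -0.25, and with the second RRM1 was -0.25 and RRM2 0.15.

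The apoptosis genes differed little. BBC3 (ENSG00000105327; chromosome 19, 47220822 to 47232766) encodes PUMA, a BH3-only protein that frees BAX from its inhibitors. It had 4.81 and 4.22 CPM in the controls and 3.24 and 3.85 CPM in siAARS1. Both siAARS1 libraries lay below both controls, but the log2 fold change of -0.28 (95% interval -0.56 to -0.00361 before adjustment) missed the threshold (limma adjusted p = 0.0653). Median scaling gave -0.46 (limma adjusted p = 0.00258) and quantile normalization -0.35 (limma adjusted p = 0.0211), both past the threshold. BBC3 overlaps the microRNA genes MIR3190 and MIR3191, which share 80 and 76 exon bases with it.

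BAX (ENSG00000087088; chromosome 19, 48954815 to 48961798) forms pores in the outer mitochondrial membrane. It had 62.6 and 61.2 CPM in the controls and 51.0 and 53.6 CPM in siAARS1, a mean 15.6% lower. Its log2 fold change was -0.24 (standard error 0.0517, limma adjusted p = 0.000322). Among related genes BAK1, the other pore former, fell by 0.21 and BCL2L1, which holds both in check, fell by 0.41 on the log2 scale. BID fell by 0.17, while BCL2 (0.15), MCL1 (0.07) and BCL2L11 (0.04) were not called.

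TP53I3 (ENSG00000115129; chromosome 2, 24077433 to 24085861) encodes a quinone oxidoreductase, known as PIG3, that raises reactive oxygen species. It had 49.1 and 49.0 CPM in the controls and 42.2 and 40.5 CPM in siAARS1, with no overlap. The mean was 15.6% lower, with a log2 fold change of -0.24 (standard error 0.0551, limma adjusted p = 6e-04). BAX and TP53I3 therefore fell by much less than CDKN1A and GDF15, and both stood at percentile 31.3 of all genes.

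SESN1 (ENSG00000080546; chromosome 6, 108986437 to 109094819) encodes sestrin 1, a stress protein that restrains mTORC1. It had 6.98 and 5.36 CPM in the controls and 6.54 and 7.40 CPM in siAARS1, so the groups overlapped. The gene shares 363 exon bases with the antisense transcript AL390208.1. The log2 fold change of 0.16 (95% interval -0.10 to 0.42) was not called (limma adjusted p = 0.259), and it depended on the control library used. It was 0.32 without control replicate 1 (limma adjusted p = 0.0473) and -0.00382 without control replicate 2. The paralogs of SESN1 had fold changes of opposite sign in the deposited values. SESN2, a target of ATF4 as well as of p53, fell by 0.37 on the log2 scale, and SESN3 had 25.2 and 27.9 CPM in the controls and 61.4 and 65.8 CPM in siAARS1, a log2 fold change of 1.23. The rise of SESN3 turned to -0.37 and -0.0279 under the composition corrections, and SESN2 (-0.10 and -0.09) was then not called.

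Levels of the genes were compared per kilobase of 1 annotated transcript each. In the controls the order of mean CPM per kilobase was BAX (78.1), TP53I3 (24.5), CDKN1A (23.2), MDM2 (8.25), MDM4 (3.37), GDF15 (2.69), BBC3 (2.46), SESN1 (1.76) and RRM2B (0.854), and no neighbours in that order overlapped. In siAARS1 MDM2 (15.5) passed CDKN1A (9.92), RRM2B (2.56) came after MDM4 (4.91), and GDF15 (0.732) became the lowest. This order depends on the transcript chosen for each gene, and other choices were not tried. That of MDM2 had 2523 bases, while all annotated exons of MDM2 cover 13284 bases. SESN1 (1.99) and BBC3 (1.93) overlapped there and did not differ beyond the spread of the libraries.

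The changes followed the base composition of the transcripts across the whole table. Among 13819 genes with a matched GENCODE transcript, the log2 fold change fell with GC content (Spearman's rho -0.654 across genes, which are not independent replicates). By quintile, from the least GC to the most, the median change on the log2 scale was 0.77, 0.20, -0.12, -0.24 and -0.30. The 9 genes were spread along this axis. RRM2B (36.4% GC), MDM2 (41.8%), MDM4 (42.4%) and SESN1 (43.4%) were GC-poor, and CDKN1A (58.1%), TP53I3 (58.4%), BAX (60.7%), GDF15 (62.9%) and BBC3 (69.7%) were GC-rich. All 4 of the first had fold changes above 0 and all 5 of the second below 0. Within their own quintile, 6 of the 9 genes lay between the 25th and the 75th percentile. RRM2B at 1.39 was one of them, in a range of 0.31 to 1.42. The other 3 lay outside. CDKN1A (-1.19) and GDF15 (-1.18) were below ranges of -0.43 to -0.07 and -0.53 to -0.11, and MDM2 (0.88) was above a range of -0.07 to 0.62.

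**Figure D2:**
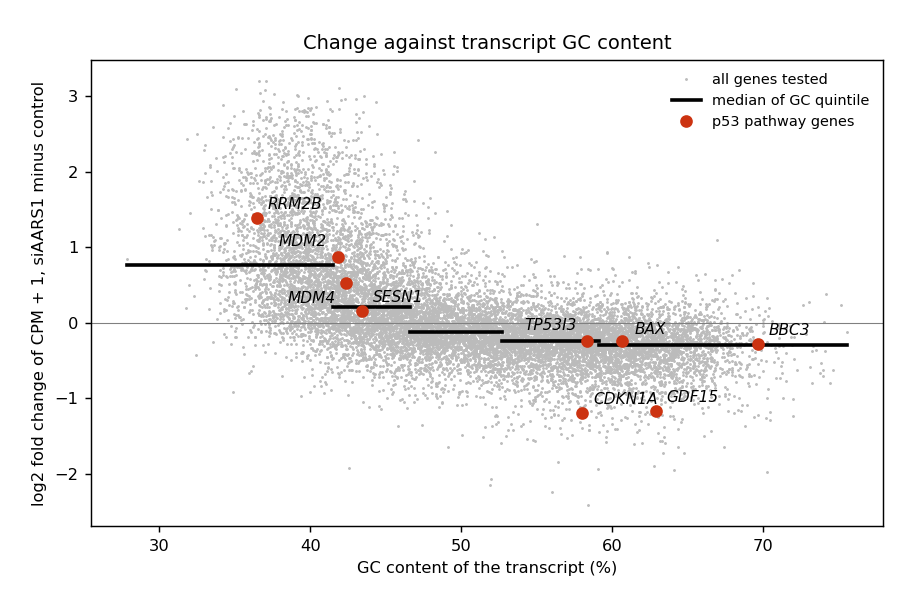
Log2 fold change of CPM + 1 (siAARS1 minus control) against the GC content of the transcript in percent, with grey points for the genes tested, black bars for the median of each GC quintile and red points for the 9 p53 pathway genes. CDKN1A and GDF15 lie well below the genes of like GC content, whereas RRM2B lies inside the cloud of GC-poor genes.

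A pair of corrections took this trend out of each library, and they take out any true change that follows composition too. The first used the GC content and length of the transcript. After it CDKN1A (-0.93, limma adjusted p = 6.52e-11) and GDF15 (-0.999, limma adjusted p = 1.21e-05) remained lower and MDM2 remained higher (0.39, limma adjusted p = 1.22e-05). RRM2B was no longer called (0.17, limma adjusted p = 0.167), and MDM4 turned from 0.53 to -0.53 and was called lower (limma adjusted p = 3.52e-08). In all, 1 member was then called higher and 3 lower, where 28.5% of all genes were called higher and 37.7% lower.

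The second correction used the coding sequence and the 3' UTR as separate terms. After it CDKN1A (-0.88, limma adjusted p = 1.97e-12) and GDF15 (-0.98, limma adjusted p = 5.07e-06) were again called lower, and RRM2B was called higher at a smaller size (0.43, limma adjusted p = 0.00109). MDM2 was not called (0.11, limma adjusted p = 0.0914). MDM4 (-0.22, limma adjusted p = 0.000439) and SESN1 (-0.58, limma adjusted p = 0.000169) were called lower. That made 1 member higher and 4 lower, against 27.0% and 39.2% of all genes. Where the corrections kept the mean level of each library instead of its median, 4 members were called higher with each and 3 lower. The 4 were MDM2, RRM2B, BAX and TP53I3, so BAX and TP53I3 were then called in the opposite direction. Calls over all genes shifted too: with the mean kept, 6132 of 13819 were higher and 3288 lower under the first correction. Under the second, 6028 of 12157 were higher and 2482 lower. BBC3, BAX and TP53I3 lay between -0.01 and 0.05 after either correction with the median kept, and none of them was called. Of the 9 genes, CDKN1A and GDF15 were the ones called in the same direction in all 19 settings run. Their size was not constant: with the mean kept, CDKN1A was -0.77 and -0.68 and GDF15 -0.84 and -0.79.

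**Figure D3:**
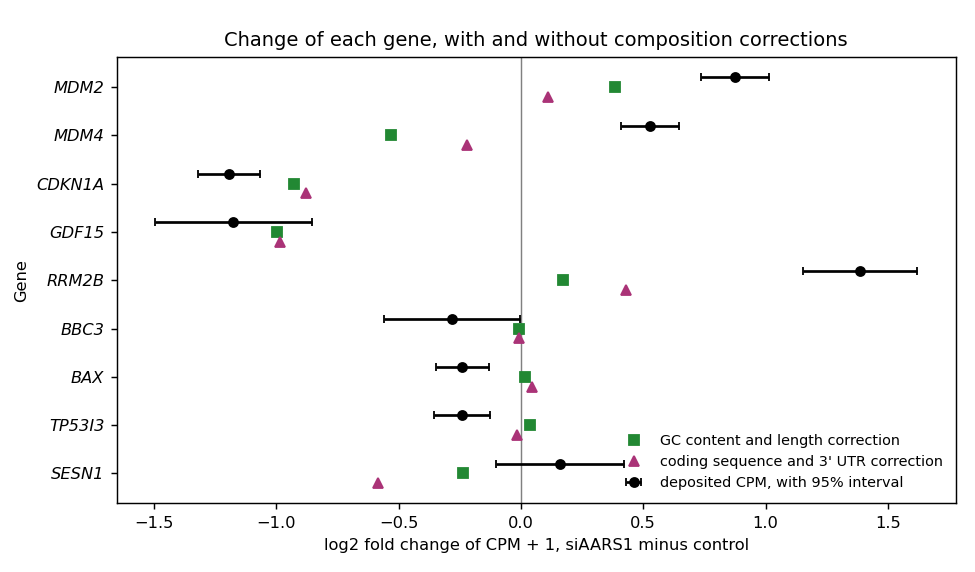
Log2 fold change of CPM + 1 (siAARS1 minus control) of each of the 9 genes, as black points with 95% limma intervals for the deposited values, green squares corrected for transcript GC content and length, and purple triangles corrected for coding sequence and 3' UTR. In the fits drawn, CDKN1A goes from -1.19 to -0.93 and -0.88, and GDF15 from -1.18 to -0.999 and -0.98. RRM2B shrinks from 1.39 to 0.17 and 0.43, and MDM4 changes sign.

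The other genes of the pathway were read from lists by role. Among 17 regulators of p53, 11 were called higher, 2 lower and 4 not called, with a median log2 fold change of 0.20. Over all genes tested 32.6% were called higher and 38.0% lower. The kinases that phosphorylate p53 after DNA damage led the rises. ATR had 5.10 and 3.56 CPM in the controls and 29.3 and 28.5 CPM in siAARS1 (2.50 on the log2 scale), and ATM had 9.68 and 11.1 CPM in the controls and 57.5 and 67.5 CPM in siAARS1 (2.48). The ubiquitin ligase RCHY1 followed at 1.16. CDKN2A, whose ARF product blocks MDM2, fell by 0.47, and the ribosomal protein RPL11, which also binds MDM2, fell by 0.19. Under the composition corrections CDKN2A was -0.17 and -0.13, and RPL11 was -0.12 and 0.00339. With the mean level kept, CDKN2A was -0.0146 and 0.0616. The transcripts of ATR, ATM and RCHY1 are GC-poor, and their rises shrank or turned under the composition corrections. ATR was 1.28 with the first and 0.22 with the second, which was not called (limma adjusted p = 0.0806). ATM was 0.99 with the first and -0.25 with the second, and RCHY1 was -0.07 with the first and 0.34 with the second. Median scaling left 6 regulators higher and 7 lower, beside 3379 higher and 7999 lower of all 14199 genes tested. The first correction left 7 higher and 5 lower, beside 28.5% and 37.7% of all genes. The second left 4 higher and 6 lower, beside 27.0% and 39.2% of all genes.

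The 3 lists of further p53 targets held 41 tested genes, of which 23 were called lower, 8 higher and 10 not called, with a median of -0.21. Over all genes tested 38.0% were called lower and 32.6% higher, and the counts of each list below are to be read beside these shares. The arrest and signalling targets divided evenly, with 5 higher, 5 lower and 1 not called of 11. BTG2, an antiproliferative gene, had 29.03 and 29.97 CPM in the controls and 16.0 and 14.6 CPM in siAARS1 (-0.90), GADD45A, a growth arrest gene, fell by 0.80 and SFN, the 14-3-3 protein sigma, fell by 0.56. The rises were led by KITLG, the ligand of the KIT receptor (2.02), by FBXW7, a ubiquitin ligase subunit (0.80), and by CCNG1, cyclin G1 (0.68). Of the apoptosis targets 2 were higher, 9 lower and 5 not called of 16 (EDA2R was not in the table used here). FAS, the death receptor, had 8.09 and 8.64 CPM in the controls and 15.5 and 18.9 CPM in siAARS1 (0.95), and APAF1 rose by 0.35. PHLDA3 (-0.77), TP53INP1 (-0.71) and PERP (-0.60) fell. The last of these, with 45.1 and 49.6 CPM in the controls and 29.2 and 32.5 CPM in siAARS1, is GC-poor at 41.2%, as is TP53INP1 at 39.6%, so both fell among genes that mostly rose. Of 14 repair and metabolism targets 1 was higher (TIGAR, listed as C12orf5, 0.42), 9 were lower and 4 were not called, and the falls were led by DRAM1 (-0.75), the repair gene DDB2 (-0.63) and ABHD4 (-0.60). Under the first correction CCNG1 (-0.10), APAF1 (-0.07) and C12orf5 (-0.19) changed sign. The second correction also turned CCNG1 and APAF1, and APAF1 was then far lower than under the first.

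**Figure D4:**
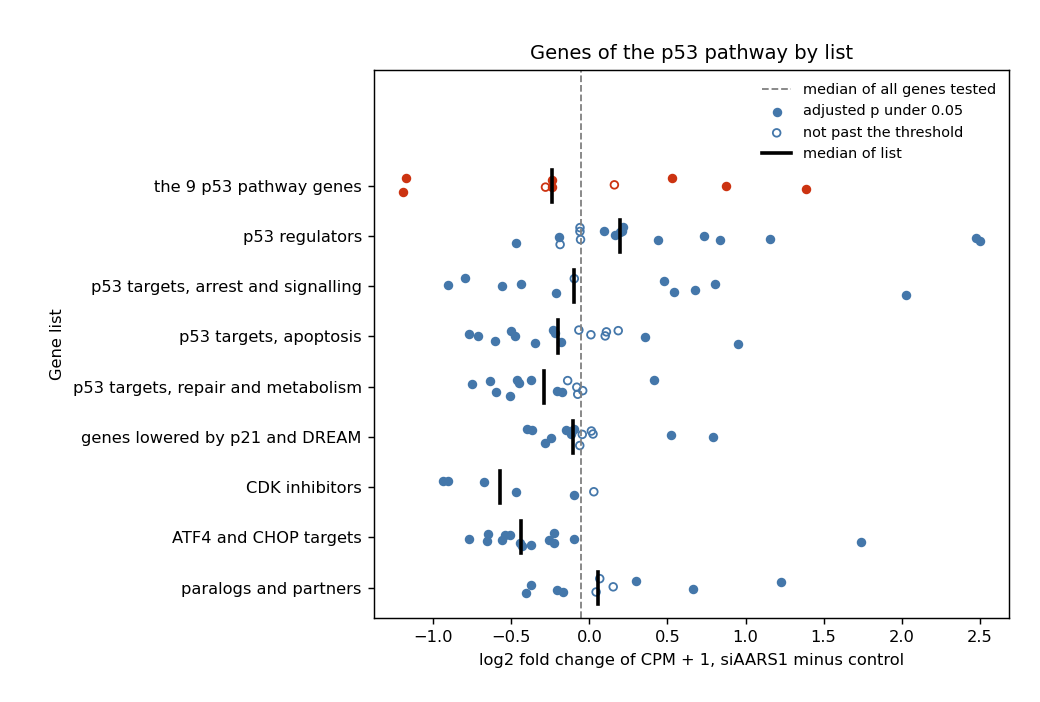
Log2 fold change of CPM + 1 (siAARS1 minus control) of the genes in each list, filled where the limma adjusted p was under 0.05 and open where not, with a black bar at the list's median and a dashed line at the median of all genes (-0.05). The 9 genes spread from -1.19 to 1.39, while the CDK inhibitors and the ATF4 and CHOP targets lie mostly below 0.

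p21 lowers many mitotic genes through the DREAM repressor complex, and of 14 such genes 2 were higher, 8 lower and 4 not called, with a median of -0.10, where 32.6% of all genes were higher and 38.0% lower. Under either correction 4 were higher and 6 lower, beside 28.5% and 37.7% of all genes with the first and 27.0% and 39.2% with the second. CDK1, the mitotic kinase, had 82.4 and 84.3 CPM in the controls and 142 and 148 CPM in siAARS1 (0.79), and CCNA2, cyclin A2, rose by 0.53. CDC25C (-0.40), CENPA (-0.37) and CDC20 (-0.28) fell, and CDK1 turned to -0.00765 and -0.00583 under the corrections. Of the 6 other CDK inhibitors 5 were called lower. CDKN2D fell by 0.94, CDKN2B by 0.91, CDKN1C by 0.67, CDKN2A by 0.47 and CDKN2C by 0.10 on the log2 scale. CDKN2B had 25.0 and 25.4 CPM in the controls and 11.8 and 14.3 CPM in siAARS1. CDKN1B, which encodes p27, had 65.1 and 65.7 CPM in the controls and 66.1 and 67.4 CPM in siAARS1 and was not called (0.03). CDKN2C turned to 0.16 under the first correction and to 0.02 under the second, and CDKN2A shrank to -0.17 and -0.13.

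GDF15 and SESN2 are also targets of ATF4 and CHOP, the factors that respond to amino acid shortage. Of 14 genes of that response 13 were called lower and 1 higher, with a median of -0.44, where 38.0% of all genes were called lower and 32.6% higher. ASNS, asparagine synthetase, had 172 and 174 CPM in the controls and 107 and 112 CPM in siAARS1 (-0.65), TRIB3 fell by 0.65 and ATF3 by 0.77. SLC7A11, the cystine transporter, was the exception, with 25.7 and 26.9 CPM in the controls and 83.2 and 97.9 CPM in siAARS1 (1.74). After the first correction 9 were called lower and 0 higher, and after the second 9 lower and 1 higher, beside 37.7% and 39.2% of all genes called lower. SLC7A11 was 0.0386 with the first, which was not called, and 0.67 with the second.

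The genes whose profile over the 4 libraries was nearest to that of a member were found by Euclidean distance on log2(CPM + 1) minus the control mean, among genes with at least 5 CPM in the higher group. Nearest to CDKN1A were EVA1B (distance 0.0401), the protein-coding gene MISP3 (listed as hsa-mir-1199, 0.0551), SEMA6B (0.0663) and A4GALT (0.0784). EVA1B had 63.6 and 62.7 CPM in the controls and 27.3 and 26.6 CPM in siAARS1. Near to GDF15 were SYT12 (0.0393), CORO1A (0.0693) and ICAM4 (0.0742), and nearest to RRM2B were ZNF136 (0.0441), ZNF431 (0.0503), MSANTD4 (0.0632) and CMTR2 (0.0702). With 4 libraries in a pair of groups, such likeness mostly reflects the size of the difference between the groups.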

How the data were processed

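Total RNA of HGC27 cells was sequenced in 2 control and 2 siAARS1 libraries, grouped by their titles. The authors deposited 1 table of 14431 genes in CPM, and the submitters' processing notes name RSEM 1.3.3 and hg38 without giving their roles. How the CPM values were scaled, the annotation and the use of strand are not given in the sources used here. In the 4 columns of deposited CPM values, the 7909 to 8627 lower values tested per column were whole multiples of 1 read (100% within 0.1 read), and read counts were recovered from the columns. The chi-square statistic per gene between replicates was 3.62 (control) and 3.60 (siAARS1), above sampling noise, and all 4 libraries were kept as separate samples.

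The members and the lists were chosen with earlier results of these data known. Genes averaging 1 CPM or more in either group were tested with limma 3.58.1 (R 4.3.3; eBayes with a trend) on log2(CPM + 1), with Benjamini-Hochberg adjustment over 14199 genes and a threshold of 0.05. Fold changes are on that scale and understate the change of low genes. Alternatives were edgeR 4.0.16 and DESeq2 1.42.0 on recovered reads, no filter, a pseudocount of 0.1, a threshold of 0.01, median scaling, quantile normalization, the replicate block, leaving out each library, and the composition corrections (mgcv 1.9.3 smooths with 6 basis functions, which kept the median deviation of each library). A version that kept the mean deviation was added after seeing the data.

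Coordinates, transcripts and GC content are those of GENCODE release 29 on GRCh38, matched by identifier for 97.2% of listed genes, and may not be the annotation the authors used. Named were AARS1, the 9 genes, their paralogs and partners, the CDK inhibitors, up to 3 called genes with the largest rise and up to 3 with the largest fall from each other list, the nearest profiles, and marker genes. Some genes that this rule selects are not reported here.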

Additional observations from a re-analysis of the deposited data

How the results depend on the processing

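On the log2 scale, the GC content and length correction, with and without the replicate block, gave -0.53 for MDM4, 0.17 for RRM2B, 0.0172 for BAX, 0.035 for TP53I3 and -0.24 for SESN1. Correcting for coding sequence and 3' UTR gave 0.11 for MDM2, -0.22 for MDM4, 0.0452 for BAX, -0.0143 for TP53I3 and -0.58 for SESN1. Versions that kept the mean instead of the median deviation, chosen after seeing the data, moved the median of all genes to 0.11 and 0.14 and gave -0.37 and -0.0297 for MDM4, 0.15 and 0.19 for BBC3, 0.18 and 0.24 for BAX, 0.19 and 0.18 for TP53I3, and -0.0776 and -0.39 for SESN1. MDM2 was then 0.55 and 0.30, RRM2B 0.33 and 0.62, and both were called. Genes called lower numbered 3288 and 2482 with the mean kept, 5206 and 4769 with the median kept, and 5399 without a correction, over 13819 and 12157 genes with and 14199 without a correction. Median scaling, which moved the median of all genes from -0.05 to -0.26, gave -0.46 for BBC3 and -0.0386 for SESN1, and quantile normalization (median -0.15) gave -0.35 for BBC3. SESN1 ranged from -0.00382 to 0.32 when 1 library was left out. The share of higher calls among all calls fell from 46.2% to 29.7% (3379 higher, 7999 lower) with median scaling and was 37.0% with quantile normalization (3984 higher, 6776 lower), and it was 65.1% and 70.8% when the corrections kept the mean.

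With the replicate block, BBC3 (-0.28, limma adjusted p = 0.0487) was called, and the count of all calls moved from 10032 to 4770 higher and 5619 lower. The labels do not say that equal numbers share a culture or day, and with 2 pairs libraries of the same number had deviations that correlated at 0.118 over the genes. The lone library of a group, when its partner was left out, was assumed to vary like the other group.

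Both corrections left 1 member called higher instead of 3 with the median kept, and 4 (MDM2, RRM2B, BAX and TP53I3) with the mean kept. Over all genes, 6132 of 13819 and 6028 of 12157 were called higher with the mean kept. The p53 regulators called higher numbered 6 (median scaling), 7 (without control replicate 1 and under the first correction, also with the block) and 4 (second correction) instead of 11, within a range of 7 to 10 when 1 library was left out. Those called lower numbered 7, 6, 5 and 6 (median scaling, quantile normalization, first and second correction) instead of 2. Arrest targets called higher numbered 1 under both corrections instead of 5, and 8 instead of 5 were lower under the first. Apoptosis targets called higher numbered 1 under both scalings and 4 under the second correction instead of 2, and repair targets 0 with quantile normalization and 2 under the second correction instead of 1. Of genes lowered through DREAM, 4 were higher under both corrections instead of 2, and 5 (threshold of 0.01, edgeR with and without a filter, and without control replicate 1, the lowest of a range up to 7) or 4 (DESeq2) were lower instead of 8. CDK inhibitors called higher numbered 1 instead of 0, ATF4 and CHOP targets 0 instead of 1, and paralogs and partners 1 instead of 3 under the first correction. Of the last list 2 instead of 4 were lower with DESeq2 and the second correction.

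Among single genes, the first correction, also with the block, turned RCHY1 (-0.0707), CCNG1 (-0.10), APAF1 (-0.0652), C12orf5 (-0.19), CDK1 (-0.00765), CDKN2C (0.16), RRM2 (-0.25), SESN3 (-0.37), BAK1 (0.0694), BCL2 (-0.26), MCL1 (-0.21) and ZNF431 (-0.17). The second turned ATM (-0.25), RPL11 (0.00339), CCNG1 (-0.050), APAF1 (-1.19), CDK1 (-0.00583), CDKN1B (-0.0107), CDKN2C (0.0166), RRM1 (-0.25), SESN3 (-0.0279), BAK1 (0.0821), BID (0.0824), ZNF431 (-0.45) and CMTR2 (-0.37). Median scaling turned CDKN1B (-0.20), BCL2 (-0.0594), MCL1 (-0.16) and BCL2L11 (-0.17), and quantile normalization CDKN1B (-0.0597), BCL2 (-0.10) and BCL2L11 (-0.21). BCL2L11 was -0.0624 without control replicate 2 and -0.00871 without siAARS1 replicate 2. The cause was not tested. A tally was made of single genes other than the 9 members, AARS1 and the markers, without the versions that kept the mean. Of their values recomputed under an alternative, 822 kept their direction and side of the threshold, 46 changed sign, and the others moved across the threshold. Changes of the members and of the list counts are not in this tally. With 25 to 31 reads in siAARS1, GDF15 had the largest standard error of the 9 genes (0.154).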
